A study of Sus scrofa with 15 samples.

Results

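In the mammary gland of the pregnant sow, 95 genes had a mean expression that fell at each of the 4 steps between 14 d prepartum and 1 d postpartum. They were chosen by their own levels. A gene was kept when its mean over 3 libraries decreased from 14 to 10, 6 and 2 d prepartum and again to 1 d postpartum, when the mean at 2 d prepartum was at most 0.6 times that at 14 d, and when its highest mean was at least 5 CPM (library-size normalized counts) after the scaling of libraries by TMM (trimmed mean of M values). Of the 13503 genes tested, 695 fell at all 4 steps, 173 of these also met the ratio and 95 also met the level. The 76 members that could be named included the transcription factors TFAP2C and AHR, cartilage-type collagens and genes of Wnt and Notch signalling. Also among them were actin-binding proteins and receptors of neurotransmitters and peptides. The other 19 carried an Ensembl ID only.

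The libraries came from biopsies of mammary tissue of 3 crossbred sows (Danish Landrace and Yorkshire) in their second parity, taken with a biopsy needle under anesthesia. They were the sows with the highest colostrum yield of those considered, and each received its own diet, which were alfalfa meal with trioctanoate, sugar beet pulp with palm fatty acid distillate, and alfalfa meal with soybean oil. Each sow was sampled at 14, 10, 6 and 2 d before parturition and at 1 d after it, so that each of the 5 time points had 3 libraries, all sows being treated alike apart from the diet. The labels do not name the sow of a library. It was taken from the sample ID of the supplementary alignment summary, joined by the exact total count, and sow and diet cannot be told apart. Suckling piglets were present only at 1 d postpartum. By the dates in the study, the diets were allotted after the biopsies of 14 d prepartum. In comparisons with 14 d the change of diet and time therefore cannot be told apart. Banamine was given after each biopsy, so that only libraries of later time points followed a dose.

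Late pregnancy is the time when the ducts and alveoli of the gland complete their growth and the luminal cells of the alveoli turn to secretion, first of colostrum and, around parturition, of milk. Wnt, Notch and bone morphogenetic protein (BMP) signals and transcription factors of the AP-2 family are known for their part in branching growth and in keeping luminal cells in a progenitor state. A biopsy holds luminal and myoepithelial cells, fibroblasts, fat, vessels and blood cells, and in such bulk tissue fewer cells of a type and less RNA per cell cannot be told apart.

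Total counts lay between 10782343 and 19952918 per library, and the TMM factor lay between 0.545, at 1 d postpartum, and 1.24, at 14 d prepartum, while the 10 most abundant genes of a library took between 16.6% and 53.8% of its counts. The RNA integrity number (RIN) that the study lists rose with time, and its part in a fall cannot be told apart from that of time. All 20 markers of luminal epithelium were detected in all 15 libraries. The sums of markers given here leave out the members, for this list TFAP2C and ANXA9. Without them the luminal markers summed to between 2107 and 2437 CPM at 14 d and between 2159 and 2673 CPM at 2 d prepartum. At 1 d postpartum they summed to between 2846 and 4050 CPM. The 38 markers of extracellular matrix and fibroblasts, without the member COL9A1, summed to between 6124 and 9020 CPM at 14 d. They summed to between 5302 and 5605 CPM at 2 d prepartum and between 3366 and 5466 CPM at 1 d postpartum. This sum was lower at 2 d than at 14 d in all 3 sows. The part of this shift in the falls described here was not tested.

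Of these libraries, 3 stood apart in transcripts of the cornifying skin surface. KRT1 and KRT10, the paired keratins of differentiating epidermal cells, both met the rule but did not decline steadily in any sow. KRT1 had 0.137, 333 and 0.485 CPM at 14 d prepartum, 85.3, 0.319 and 10.6 at 10 d, 0.216, 4.15 and 49.5 at 6 d, 0.173, 0.181 and 0.0737 at 2 d prepartum and 0.17, 0.0991 and 0.073 at 1 d postpartum, in the order of sows 1, 2 and 3 at each time point, as in every list of values here. KRT10 had 1.83, 207 and 1.99 CPM at 14 d prepartum, 49.9, 5.37 and 7.69 at 10 d, 1.41, 6.71 and 35.2 at 6 d, 2.08, 4.66 and 1.47 at 2 d prepartum and 1.53, 1.78 and 1.46 at 1 d postpartum. Both keratins were therefore high in library 4 of sow 2 at 14 d, library 10 of sow 1 at 10 d and library 25 of sow 3 at 6 d, with both at 10.6 CPM or less in the other 12 libraries. The same 3 libraries held the highest levels of KRT77, KRTDAP and CDSN, other genes of differentiating skin epithelium. KRTDAP, for instance, stood at 15.3, 3.69 and 3.50 CPM in libraries 4, 10 and 25 and at 0.484 CPM or less in the other 12. DSG1, a desmosomal cadherin, was highest in library 4, at 9.09 CPM, but not in library 25. TGM1, a transglutaminase of the cornified envelope, went otherwise, being highest in library 43 of sow 3 at 1 d postpartum, at 1.75 CPM, with 1.68 CPM in library 4 and 0.394 CPM in library 25. Of the 18 epidermal markers considered, 7 could be matched by name, and the 5 of these that were not members summed to 41.6, 13.5 and 9.75 CPM in libraries 4, 10 and 25 and to 3.43 CPM or less in the other 12. Their part in the levels of the other members was not tested. When these 3 libraries were left out, the rule chose 88 genes, of which 60 were among the 95.

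**Figure D1:**
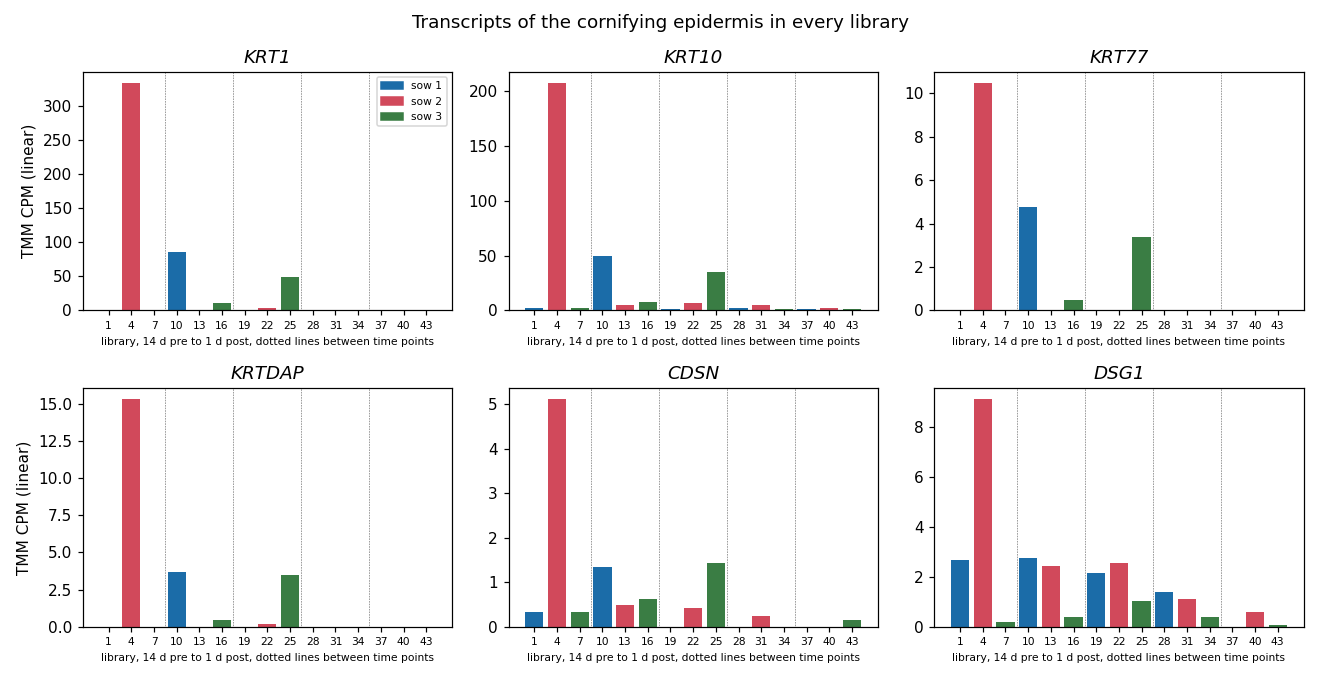
Level (TMM CPM, linear axis from 0) of 6 epidermal genes in each of the 15 libraries, in order of time and coloured by sow. TGM1, which was also matched by name and was highest in library 43, is not shown. KRT1, KRT10, KRT77, KRTDAP and CDSN were highest in libraries 4, 10 and 25, which belong to 3 different sows and 3 different time points.

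The decline of the 95 genes was slow at first and steeper toward parturition. The median ratio of the means was 0.822 from 14 to 10 d, 0.861 from 10 to 6 d, 0.703 from 6 to 2 d prepartum and 0.619 from 2 d prepartum to 1 d postpartum. For 55 genes the last step was the largest in proportion, for 30 it was the step from 6 to 2 d, for 8 that from 10 to 6 d, and for 2 the first. The median of the mean level was 18.1 CPM at 14 d, against 15.2 CPM over all genes tested, and 4.19 CPM at 1 d postpartum. Together the members took from 0.369% to 0.523% of all counts of a library at 14 d and from 0.0379% to 0.1002% at 1 d postpartum, shares that abundant milk transcripts dilute. After TMM, and without KRT1 and KRT10, their summed level lay between 3193 and 3684 CPM at 14 d and between 693 and 1151 CPM at 1 d postpartum. At 1 d postpartum 35 genes kept at most 0.25 of their 14 d mean, and 12 kept at most 0.1 of it.

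**Figure D2:**
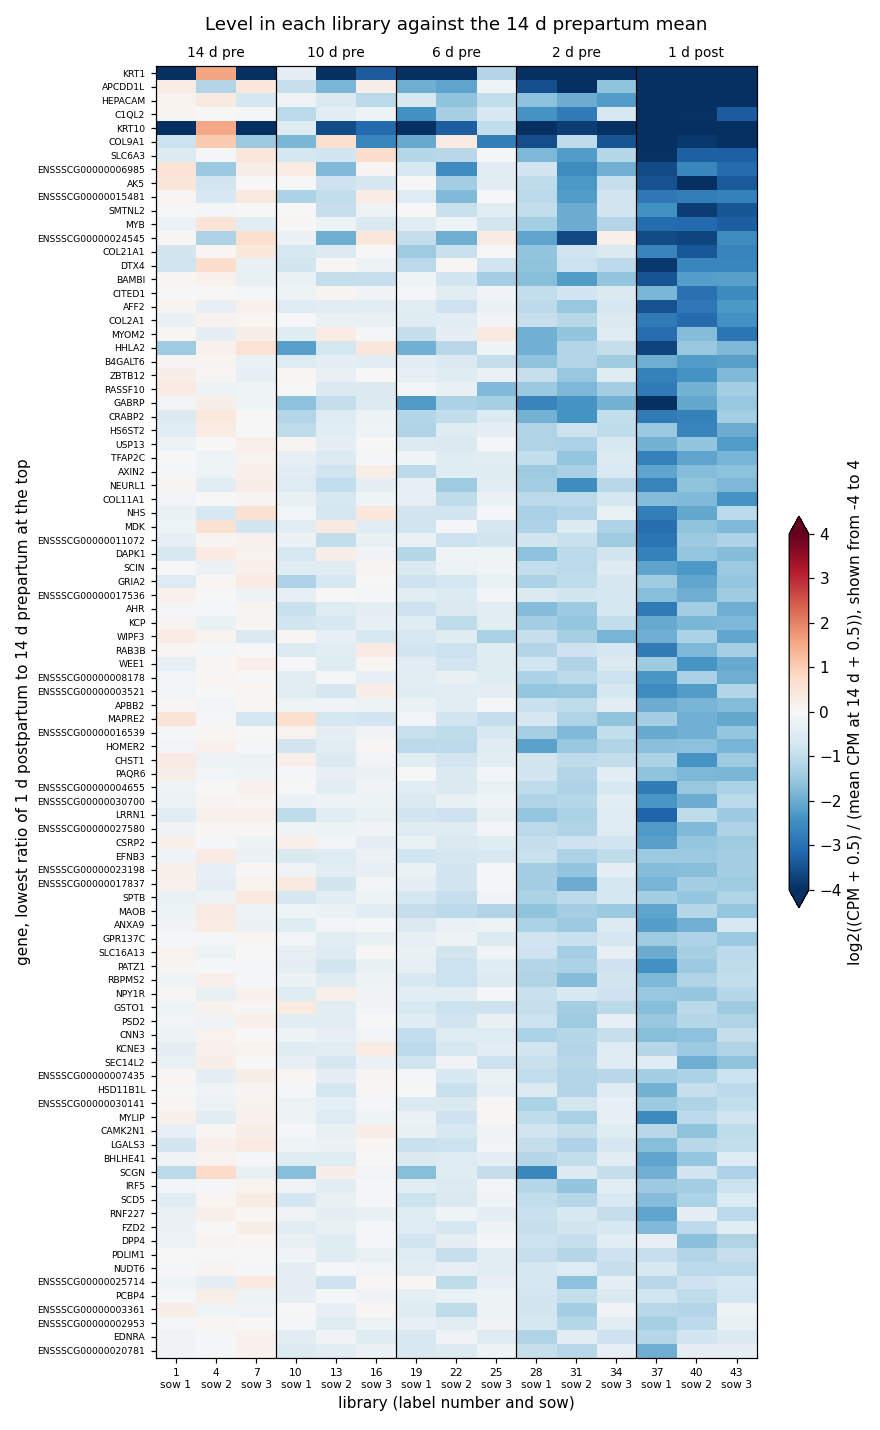
Level of 94 of the 95 genes in each library, as log2 of CPM plus 0.5 over the 14 d prepartum mean plus 0.5, with genes in rows by their ratio of 1 d postpartum to 14 d prepartum and libraries in columns by time and sow. Blue deepens toward parturition in nearly all rows, KRT1 and KRT10 are high in single libraries only, and APCDD1L, HEPACAM and C1QL2 are among the rows that are darkest at 1 d postpartum.

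Because these contrasts chose the genes, the counts of differentially expressed genes (DEG) among them are a description. A DEG passed an adjusted p (Benjamini-Hochberg) of 0.05 for time as a whole and for the comparison itself, both from the quasi-likelihood test of edgeR on all genes. In the -10vs-14 time comparison 0 members were downregulated, against 0% of all tested genes, and in -6vs-14 also 0, against 0%. Without adjustment, at p of 0.05, these numbers were 4 members (0.829% of all genes were lower at this level) and 25 members (3.75%), and DESeq2 called 0 and 4 members, limma-voom without the sow 0 and 0, and limma-voom with it as a random effect 0 and 2. In the -2vs-14 time comparison, here called the prepartum comparison, 34 of the 95 were downregulated, against 0.896% of all genes. In +1vs-14, the postpartum comparison, 74 were, against 10.4%. All 34 were among the 74, and 21 members were DEG in neither. The 3 libraries of 2 d prepartum lay below all 3 of 14 d in 81 members, against 14.1% of all genes, and those of 1 d postpartum in 92, against 19.4%.

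A block for the sow raised the prepartum count to 83 members, with 3.61% of all genes then lower, and the postpartum count to 89, with 13.8%. It added 4 in -6vs-14, against 0.0518%, which were COL9A1, PDLIM1, MAOB and the unnamed ENSSSCG00000016539. Among the 12 members that it did not call in the prepartum comparison were KRT1, KRT10, SEC14L2, HSD11B1L, DPP4, MYLIP and RNF227, and among the 6 in the postpartum one KRT1, KRT10 and SEC14L2. The counts by role below come from the fit without the block. That fit called 35.8% of all members prepartum and 77.9% postpartum, against 0.896% and 10.4% of all tested genes. With the RIN as a covariate the test called 0 members in the prepartum comparison, against 0% of all genes, and 9 in the postpartum one, against 0.304%, so that nearly all calls over all genes were lost and not those of the members alone. Before adjustment, at p of 0.05, 29 and 49 members were lower with the covariate, against 1.89% and 7.38% of all genes, and 88 and 94 without it, against 9.9% and 20.5%. Leaving out single libraries changed the prepartum count of 34 members among 121 genes called lower. It became 15 of 41 without library 1, 6 of 11 without library 4, 12 of 24 without library 7, 22 of 76 without library 16, 21 of 76 without library 19, 9 of 17 without library 28, 6 of 11 without library 31 and 66 of 510 without library 37. Without libraries 4, 10 and 25 together, 1 member was called in the prepartum comparison, against 0.0075% of all genes, and 63 in the postpartum one, against 5.88%.

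Of the 9 transcription factors and co-regulators, 5 were DEG in the prepartum and 8 in the postpartum comparison. TFAP2C (ENSSSCG00000007499, chromosome 17, 64328292 to 64338822, plus strand), an AP-2 factor of mammary epithelium, had 367, 326 and 405 CPM at 14 d prepartum, 289, 253 and 355 at 10 d, 322, 261 and 269 at 6 d, 185, 124 and 251 at 2 d prepartum and 55.6, 83.8 and 101 at 1 d postpartum. The fall was smaller until 6 d than after it, with means 1.96-fold lower at 2 d prepartum and 4.57-fold lower at 1 d postpartum, and no library of 2 d overlapped those of 14 d. Its log2 fold change was -0.97 ± 0.24 prepartum and -2.19 ± 0.25 postpartum (SE, derived from the F statistic of the test). TFAP2C was DEG in the postpartum comparison only, and in both with the sow as a block. AHR (ENSSSCG00000030484, chromosome 9, 95509942 to 95542785, plus strand), the receptor of dioxins and of tryptophan metabolites, had 259, 263 and 295 CPM at 14 d prepartum, 148, 192 and 214 at 10 d, 153, 181 and 199.7 at 6 d, 81.3, 99.8 and 166 at 2 d prepartum and 37.6, 103 and 70.6 at 1 d postpartum. It was lower at 10 d than at 14 d in all 3 sows, as was TFAP2C, changed little to 6 d and was 2.35-fold lower at 2 d prepartum and 3.87-fold lower at 1 d postpartum. PATZ1, a zinc finger repressor, had 75.9, 66.6 and 66.8 CPM at 14 d prepartum, 53.6, 42 and 56.5 at 10 d, 55.9, 37.8 and 49.6 at 6 d, 30.9, 28.8 and 39.2 at 2 d prepartum and 12.8, 25.3 and 34.2 at 1 d postpartum. AFF2, which belongs to a family of elongation factors, had 57.3, 42.1 and 59.8 CPM at 14 d prepartum, 37.2, 38.7 and 39.2 at 10 d, 38.7, 29.5 and 45.1 at 6 d, 25.3, 18.3 and 32.8 at 2 d prepartum and 4.25, 6.84 and 10.4 at 1 d postpartum. Both fell before parturition to a similar extent, 2.12-fold and 2.08-fold, but across parturition AFF2 continued to 7.42-fold lower and PATZ1 to 2.9-fold.

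MYB, a factor of proliferating progenitor cells, had 10.5, 17.8 and 8.92 CPM at 14 d prepartum, 12.8, 10.7 and 8.13 at 10 d, 9.09, 11 and 7.24 at 6 d, 4.57, 2.78 and 5.24 at 2 d prepartum and 1.02, 0.991 and 0.803 at 1 d postpartum. It had the steepest fall of the group at 1 d postpartum, being 2.95-fold lower at 2 d prepartum and 13.2-fold lower at 1 d postpartum. BHLHE41, a repressor of the circadian system, had 30.8, 37.6 and 33 CPM at 14 d prepartum, 24.1, 24.2 and 34.5 at 10 d, 22.4, 23.5 and 25.6 at 6 d, 15, 16.7 and 24.7 at 2 d prepartum and 7.48, 11.2 and 23.4 at 1 d postpartum. IRF5, an interferon regulatory factor, had 26.5, 27.9 and 31.8 CPM at 14 d prepartum, 26.3, 21.3 and 28.1 at 10 d, 21.5, 19.3 and 26.6 at 6 d, 12.7, 9.31 and 20.7 at 2 d prepartum and 10.204, 11 and 15.6 at 1 d postpartum. For BHLHE41 the library of sow 3 at 1 d postpartum remained close to its level at 2 d, and the gene was DEG in neither comparison without the sow as a block and in both with it, while IRF5 was DEG in both without it. ZBTB12, a zinc finger gene, had 32.3, 28 and 21.8 CPM at 14 d prepartum, 28.8, 22 and 27.7 at 10 d, 21.6, 19.4 and 22.5 at 6 d, 14.3, 9.19 and 19.3 at 2 d prepartum and 3.74, 4.86 and 7.67 at 1 d postpartum. It was 1.92-fold lower at 2 d prepartum and 5.05-fold lower at 1 d postpartum. The remaining factor, CITED1, a co-activator known from mammary ducts, was low, 6.67 ± 0.154 CPM (SD, n = 3) at 14 d, and fell mostly across parturition, being 1.79-fold lower at 2 d prepartum and 7.53-fold lower at 1 d postpartum. CITED1 is outside the rule for genes named in full and was picked after its values were seen, as were HEPACAM, AXIN2, BAMBI, FZD2, C1QL2, SLC6A3 and the other genes given below without the value of each library.

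**Figure D3:**
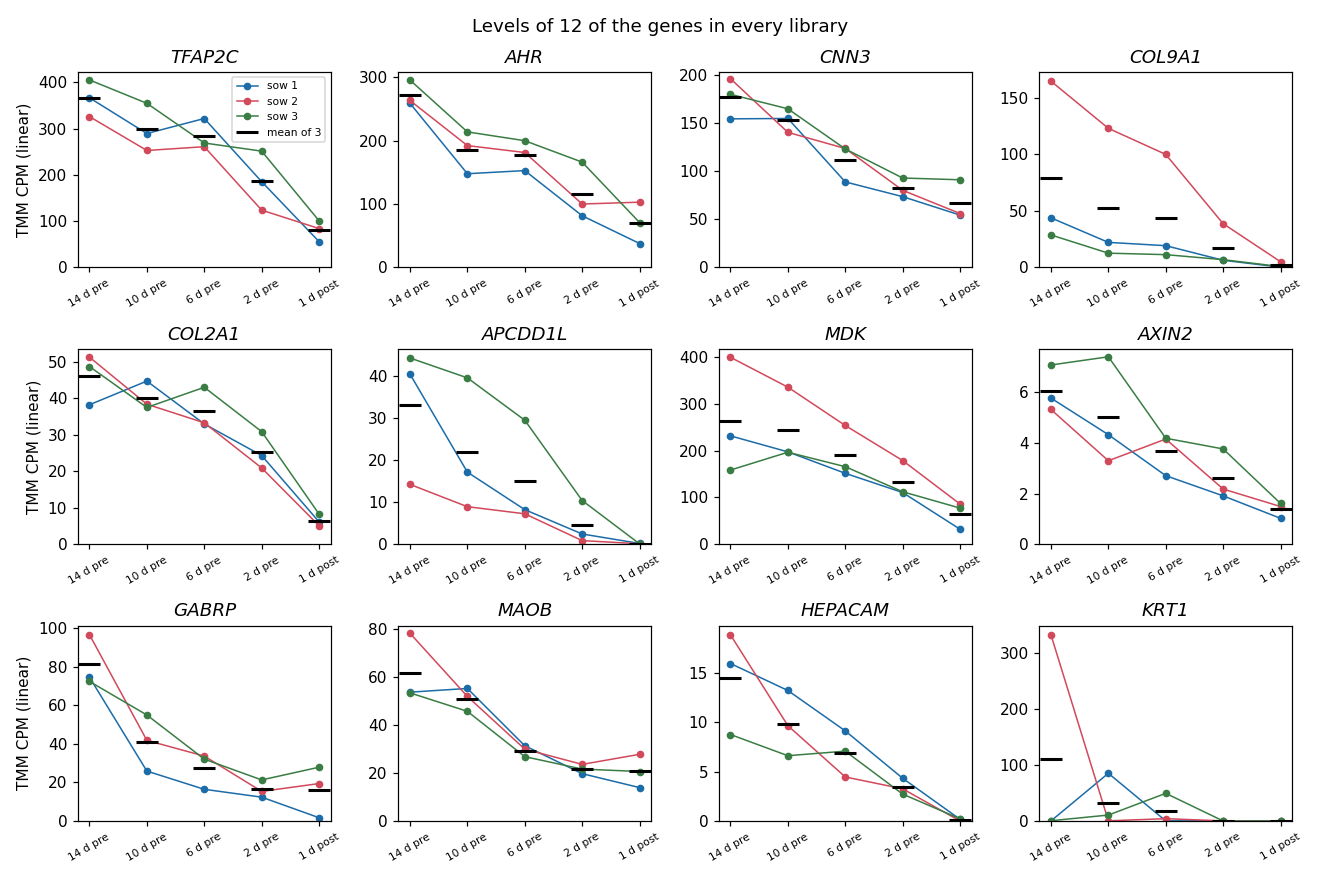
Level (TMM CPM, linear axes from 0) of 12 of the genes in every library, joined within each sow, with the mean of 3 libraries as a black bar. TFAP2C and COL2A1 fall most after 6 d prepartum, while AHR and GABRP fall already to 10 d. COL9A1 and MDK are highest in sow 2. KRT1 stands at 49.5 CPM or more in 3 libraries and at 10.6 CPM or less in the others.

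Among 9 genes of Wnt, BMP, Notch and growth factor signalling, 4 were prepartum DEG and 8 were postpartum DEG. APCDD1L (ENSSSCG00000007515, chromosome 17, 65873038 to 65882164, minus strand), a membrane protein similar to the Wnt inhibitor APCDD1, had 40.5, 14.2 and 44.4 CPM at 14 d prepartum, 17.2, 8.93 and 39.6 at 10 d, 8.22, 7.24 and 29.5 at 6 d, 2.43, 0.847 and 10.4 at 2 d prepartum and 0.17, 0.0991 and 0.073 at 1 d postpartum. It fell at each step in each of the 3 sows, but the sows started from different levels, sow 2 being the lowest. At 1 d postpartum it had 1 count in each library, 3 in all against 2140 at 14 d, a pooled level 319-fold lower (95% Clopper-Pearson interval 109 to 1550, counting error only). AXIN2, a target and inhibitor of Wnt signalling, had 6.05 ± 0.913 CPM at 14 d, then 2.62 ± 1.001 CPM by 2 d prepartum and 1.37 ± 0.31 CPM at 1 d postpartum (SD, n = 3). APCDD1L and AXIN2 were DEG in the postpartum comparison only, and in both with the sow as a block. FZD2, a Wnt receptor, was 1.75-fold lower at 2 d prepartum and 2.11-fold lower at 1 d postpartum and was DEG in neither comparison, but in both with the sow as a block.

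BAMBI, a pseudoreceptor that blocks signals of the transforming growth factor family, was 4.09-fold lower at 2 d prepartum and 7.72-fold lower at 1 d postpartum and was DEG in both comparisons. KCP, a secreted regulator of BMP signals, had 29.7, 22.8 and 29.6 CPM at 14 d prepartum, 16.1, 17.8 and 21.9 at 10 d, 19.5, 13.1 and 20.2 at 6 d, 10.4, 9.07 and 13.7 at 2 d prepartum and 6.46, 7.43 and 7.45 at 1 d postpartum. It was 2.48-fold lower at 2 d prepartum and 3.85-fold lower at 1 d postpartum, without overlap between 14 d and either later time point. KCP and IRF5 are neighbors on chromosome 18, on opposite strands and with 20590 bases between them in Sscrofa10.2. All other pairs of neighboring members on a chromosome were more than 0.3 Mb apart. DTX4, a ubiquitin ligase of the Notch pathway, had 26.4, 75.2 and 37.8 CPM at 14 d prepartum, 28, 48 and 40.6 at 10 d, 21.6, 48 and 26.6 at 6 d, 14.9, 25.3 and 22.1 at 2 d prepartum and 2.72, 7.23 and 7.23 at 1 d postpartum. NEURL1, another ligase of this pathway, was 3.13-fold lower at 2 d prepartum and 4.29-fold lower at 1 d postpartum. In DTX4 the larger proportional fall came across parturition, from 2.24-fold lower before it to 8.11-fold lower after it, whereas in NEURL1 it came before.

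MDK (ENSSSCG00000013260, chromosome 2, 17476851 to 17478911, minus strand), the heparin-binding growth factor midkine, had 232, 399.9 and 159 CPM at 14 d prepartum, 198, 336 and 197 at 10 d, 152, 254 and 166 at 6 d, 111, 179 and 112 at 2 d prepartum and 32, 85.8 and 77.2 at 1 d postpartum. Its libraries of 2 d overlapped those of 14 d, since sow 2 at 2 d stood above sow 3 at 14 d, yet within each sow the level at 2 d was below that at 14 d. Per kilobase of exon it was the most abundant member at 14 d, with 324 CPM per kb against 120 for TFAP2C and a median of 7.15 over the members. EFNB3, an ephrin ligand, fell at each step in all 3 sows and was 2.29-fold lower at 2 d prepartum and 3.2-fold lower at 1 d postpartum.

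A separate list of developmental signalling (Wnt, BMP, Notch and FGF) held part of these pathways. Of its 36 tested genes, 4 were downregulated and 0 upregulated in the prepartum comparison, and 8 were downregulated and 4 upregulated in the postpartum one. At p of 0.05 before adjustment 12 were lower and 1 higher in the former, and DESeq2 called 7 lower and 0 higher, limma-voom 5 and 0. The list's median log2 fold change was -0.32 prepartum and -0.06 postpartum, against -0.01 and 0.02 for all genes. The 4 prepartum DEG were HEY2, NDP, ID4 and ACVR1B, of which HEY2 (log2 fold change -0.07) and ACVR1B (-0.24) were not DEG postpartum. APCDD1L was the only member on this list, which did not include AXIN2, FZD2, BAMBI, KCP, DTX4 or NEURL1. Of 38 developmental transcription factors, 4 were downregulated in the prepartum comparison, MYB and, outside the 95, HEY2, ID4 and NR2F2.

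All 4 collagens kept less than 0.24 of their 14 d mean at 1 d postpartum. COL2A1 (ENSSSCG00000025523, scaffold GL893359.2, 3407 to 28692, minus strand), the main fibrillar collagen of cartilage, had 38.3, 51.3 and 48.8 CPM at 14 d prepartum, 44.8, 38.4 and 37.5 at 10 d, 33, 33.3 and 43.1 at 6 d, 24.3, 20.9 and 30.9 at 2 d prepartum and 6.12, 5.05 and 8.25 at 1 d postpartum. It was 1.82-fold lower at 2 d prepartum and 7.12-fold lower at 1 d postpartum, and at 1 d postpartum the 3 libraries lay within a narrow band far below all earlier ones. COL9A1 (ENSSSCG00000004274, chromosome 1, 56677556 to 56773097, minus strand), which coats fibrils of COL2A1, had 43.8, 165 and 28.6 CPM at 14 d prepartum, 22.1, 123 and 12.5 at 10 d, 19.2, 99.9 and 11.2 at 6 d, 6.24, 38.6 and 6.78 at 2 d prepartum and 0.17, 4.95 and 0.657 at 1 d postpartum. Sow 2 was far above the other sows at each time point, so that its library at 2 d stood between those of sows 1 and 3 at 14 d, and yet the decrease was seen at each step in all 3 sows. In the test with time alone COL9A1 was not a DEG (log2 fold change -2.19 ± 1.11 prepartum and -5.28 ± 1.40 postpartum, SE), and with a block for the sow it was one in all comparisons from -6vs-14 onward. COL11A1, the partner of COL2A1 in fibrils, was 1.97-fold lower at 2 d prepartum and 4.25-fold lower at 1 d postpartum and fell at each step in all 3 sows. COL21A1, a collagen associated with fibrils, was 1.94-fold lower at 2 d prepartum and 8.74-fold lower at 1 d postpartum. On the list of 38 genes of extracellular matrix and fibroblasts, 0 were DEG in the prepartum comparison by edgeR and by limma-voom, 4 were lower by DESeq2, and 12 were lower and 1 higher at p of 0.05 before adjustment. In the postpartum comparison 6 were downregulated and 4 upregulated, the median log2 fold changes being -0.40 and -0.29.

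Of 9 actin-binding, contractile and cytoskeletal genes, 5 were prepartum DEG and all 9 were postpartum DEG. CNN3 (ENSSSCG00000006887, chromosome 4, 134245518 to 134269264, minus strand), a calponin that binds actin, had 154, 196 and 179.7 CPM at 14 d prepartum, 155, 140.2 and 165 at 10 d, 88.7, 123 and 123 at 6 d, 73.4, 80.01 and 92.8 at 2 d prepartum and 54.3, 55.9 and 90.9 at 1 d postpartum. It was 2.15-fold lower at 2 d prepartum and 2.63-fold lower at 1 d postpartum and met the rule whichever library was left out. CSRP2, a LIM protein of smooth muscle, had 59.3, 50.3 and 44.6 CPM at 14 d prepartum, 59.8, 47.5 and 39.7 at 10 d, 42.6, 34 and 36.6 at 6 d, 26.5, 28.7 and 29.8 at 2 d prepartum and 11.1, 17.1 and 18.8 at 1 d postpartum. PDLIM1, which joins actinin to other proteins, had 92.5, 90.4 and 89.2 CPM at 14 d prepartum, 81.7, 65.3 and 76.2 at 10 d, 62.8, 47.8 and 66.6 at 6 d, 47.6, 40.7 and 50.5 at 2 d prepartum and 47.3, 39.9 and 47.5 at 1 d postpartum. CSRP2 went on to fall after parturition, to 3.28-fold lower than at 14 d, while PDLIM1 remained at the level of 2 d, 1.96-fold lower before and 2.02-fold lower after parturition. SCIN, a protein that severs actin filaments, had 24.1, 20.6 and 27.7 CPM at 14 d prepartum, 17.1, 17.1 and 26.3 at 10 d, 15.9, 20.4 and 22.5 at 6 d, 11.9, 11.2 and 16.7 at 2 d prepartum and 5.27, 4.56 and 8.4 at 1 d postpartum. It was 1.82-fold lower at 2 d prepartum and 3.97-fold lower at 1 d postpartum. SMTNL2, a smoothelin-like protein, had the steepest fall of the group at 1 d postpartum, 13.3-fold, and MYOM2, MAPRE2, WIPF3 and SPTB were between 2.98-fold and 5.97-fold lower. CNN3 and CSRP2 were the only members among the 17 tested genes of smooth muscle and pericytes and also the only prepartum DEG of that list by edgeR. Without CNN3 and CSRP2, the list summed to between 2616 and 2659 CPM at 14 d and between 2273 and 2480 CPM at 2 d prepartum. This sum was lower at 2 d than at 14 d in each sow. At 1 d postpartum it lay between 3322 and 6197 CPM.

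The 9 receptors, channels and transporters were all DEG in the postpartum comparison, and 4 were also in the prepartum comparison. GABRP (ENSSSCG00000021902, chromosome 16, 57477086 to 57495797, minus strand), the pi subunit of the GABA type A receptor, known from epithelia, had 74.6, 96.7 and 72.4 CPM at 14 d prepartum, 25.9, 41.8 and 55 at 10 d, 16.4, 33.7 and 32.1 at 6 d, 12.4, 15.4 and 21.3 at 2 d prepartum and 1.7, 19.4 and 27.9 at 1 d postpartum. It was halved by 10 d in its mean, and after 2 d the mean remained at the same level, 4.97-fold lower than at 14 d at both times, since sows 2 and 3 rose while sow 1 fell to 1.70 CPM. PAQR6, a membrane receptor of progestins, had 50.2, 39.6 and 37.9 CPM at 14 d prepartum, 41, 33.5 and 36 at 10 d, 42, 28.1 and 39.1 at 6 d, 25.1, 18.4 and 31.3 at 2 d prepartum and 13.6, 11.9 and 11.7 at 1 d postpartum. It fell in proportion most across parturition, and was 1.71-fold lower at 2 d prepartum and 3.43-fold lower at 1 d postpartum. EDNRA, an endothelin receptor of smooth muscle, was 1.77-fold lower at 2 d prepartum and 1.78-fold lower at 1 d postpartum, with almost no further fall after 2 d. NPY1R, a receptor of neuropeptide Y, was 1.75-fold lower at 2 d prepartum and 2.8-fold lower at 1 d postpartum. SLC6A3, the dopamine transporter, went from 7.19 ± 2.63 CPM at 14 d to 0, 3 and 4 counts in the libraries of 1 d postpartum. GRIA2, SLC16A13, KCNE3 and GPR137C were between 2.59-fold and 3.94-fold lower after parturition.

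Of 7 genes of calcium binding, vesicles and synaptic scaffolds, HOMER2 was the 1 prepartum DEG, and 5 were postpartum DEG. SCGN (ENSSSCG00000001101, chromosome 7, 21689470 to 21732933, plus strand), the calcium-binding protein secretagogin, had 66.2, 240.4 and 113 CPM at 14 d prepartum, 43, 168 and 128 at 10 d, 42.3, 100.3 and 72.2 at 6 d, 22.8, 95.3 and 71.5 at 2 d prepartum and 36.4, 81.4 and 59.8 at 1 d postpartum. Sow 2 was the highest at each time and sow 1 the lowest, and SCGN was DEG in neither comparison without the sow as a block and in both with it. With the RIN as a covariate its log2 fold change turned to 0.22 prepartum and 0.24 postpartum. HOMER2, a scaffold of glutamate receptors, was 3.12-fold lower at 2 d prepartum and 3.54-fold lower at 1 d postpartum. C1QL2, a secreted protein of synapses, was 3.45-fold lower at 2 d, and at 1 d postpartum it had 0, 1 and 6 counts, a pooled level 37.6-fold lower (18.1 to 94). RAB3B, CAMK2N1, PSD2 and SEC14L2 were between 2.45-fold and 3.81-fold lower at 1 d postpartum.

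Of 9 enzymes, 4 were prepartum DEG and 8 were postpartum DEG. MAOB, a monoamine oxidase of the outer mitochondrial membrane encoded on chromosome X, had 53.8, 78.4 and 53.5 CPM at 14 d prepartum, 55.4, 52 and 45.8 at 10 d, 31.4, 30.02 and 26.9 at 6 d, 19.8, 23.6 and 21.7 at 2 d prepartum and 13.9, 27.8 and 20.7 at 1 d postpartum. Its mean changed little after 2 d, being 2.85-fold lower at 2 d prepartum and 2.97-fold lower at 1 d postpartum, while sow 1 fell and sow 2 rose. AK5, an adenylate kinase, had 41.5, 17.2 and 30.1 CPM at 14 d prepartum, 29.1, 16.5 and 18.3 at 10 d, 29.1, 11 and 21.5 at 6 d, 14.5, 5.62 and 15.4 at 2 d prepartum and 2.21, 1.29 and 2.41 at 1 d postpartum. It behaved otherwise, 2.5-fold lower at 2 d and 15-fold lower at 1 d postpartum. B4GALT6, a galactosyltransferase that makes lactosylceramide, was 2.94-fold lower at 2 d prepartum and 5.61-fold lower at 1 d postpartum. HS6ST2 and CHST1, which transfer sulfate to glycans, were 4.75-fold and 3.46-fold lower at 1 d postpartum. SCD5, a fatty acid desaturase, GSTO1, NUDT6 and HSD11B1L were between 1.999-fold and 2.72-fold lower.

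Among 6 proteins of the cell surface, HEPACAM, an adhesion protein of the immunoglobulin family, lost nearly all its counts at parturition. It stood at 14.6 ± 5.21 CPM (SD, n = 3) at 14 d and had come down to 3.44 ± 0.818 CPM by 2 d prepartum, and its libraries at 1 d postpartum had 1, 0 and 3 counts, a pooled level 110-fold lower (42.7 to 403). ANXA9, an annexin on the list of luminal genes, had 8.1, 11.1 and 7.51 CPM at 14 d prepartum, 6.17, 8.18 and 8.42 at 10 d, 5.84, 7.24 and 7.58 at 6 d, 3.41, 2.9 and 5.97 at 2 d prepartum and 1.53, 1.98 and 5.48 at 1 d postpartum. It was 2.17-fold lower at 2 d prepartum and 2.97-fold lower at 1 d postpartum, although sow 3 at 1 d postpartum was close to its level at 2 d. LGALS3, DPP4, LRRN1 and HHLA2 were between 2.04-fold and 5.72-fold lower at 1 d postpartum, of which LGALS3 was a postpartum DEG.

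Several abundant members belonged to no such group. APBB2, an adaptor of the amyloid precursor protein, had 170.01, 154 and 175 CPM at 14 d prepartum, 147, 149.8 and 145 at 10 d, 138, 122 and 161 at 6 d, 89.8, 81.3 and 125 at 2 d prepartum and 41.8, 45.9 and 50.03 at 1 d postpartum. It changed little until 6 d, its libraries being between 122 and 175 CPM up to then, and was 1.68-fold lower at 2 d prepartum and 3.62-fold lower at 1 d postpartum. MYLIP, a ubiquitin ligase of the receptor of low density lipoprotein, had 102, 64.6 and 99.9 CPM at 14 d prepartum, 77.2, 61.6 and 79.1 at 10 d, 74.8, 49.98 and 91.4 at 6 d, 43.2, 36.2 and 70.9 at 2 d prepartum and 14.6, 43.1 and 50.5 at 1 d postpartum. In sow 2 it rose again after parturition, and it was DEG in neither comparison, and in the postpartum one with the sow as a block. WEE1, a kinase that holds cells before mitosis, had 41.8, 54.4 and 61 CPM at 14 d prepartum, 49.4, 37.6 and 55.5 at 10 d, 38.4, 31.1 and 37.6 at 6 d, 29.9, 22.4 and 34.9 at 2 d prepartum and 19, 9.81 and 12.6 at 1 d postpartum. PCBP4, an RNA-binding protein, had 36.3, 45.1 and 33.2 CPM at 14 d prepartum, 29.9, 35.9 and 34.5 at 10 d, 29.8, 31.8 and 33.1 at 6 d, 22.1, 19.6 and 25.7 at 2 d prepartum and 21.8, 18.5 and 22.3 at 1 d postpartum. WEE1 was 3.79-fold lower at 1 d postpartum, whereas PCBP4 was nearly as low at 2 d as after parturition, 1.7-fold and 1.83-fold. CRABP2, which carries retinoic acid, fell at each step in all 3 sows, met the rule whichever library was left out and was 3.28-fold lower at 2 d prepartum and 4.79-fold lower at 1 d postpartum. DAPK1, NHS, RNF227, USP13, RASSF10 and RBPMS2 were between 2.16-fold and 4.99-fold lower at 1 d postpartum.

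The most abundant unnamed member, ENSSSCG00000016539, chromosome 18, 15596721 to 15615030, plus strand, had 113, 125 and 116 CPM at 14 d prepartum, 131, 90.3 and 107 at 10 d, 63.2, 58.2 and 77.4 at 6 d, 46.9, 34 and 59 at 2 d prepartum and 28.6, 30.8 and 40.2 at 1 d postpartum. It was 2.53-fold lower at 2 d prepartum and 3.56-fold lower at 1 d postpartum and was DEG in both comparisons. The unnamed member with the lowest ratio of 1 d postpartum to 14 d, ENSSSCG00000006985, chromosome 17, 5450598 to 5526272, minus strand, had 8.29, 1.68 and 6.64 CPM at 14 d prepartum, 6.98, 1.28 and 5.998 at 10 d, 3.46, 0.586 and 3.94 at 6 d, 3.06, 0.544 and 1.11 at 2 d prepartum and 0, 0.495 and 0.219 at 1 d postpartum. It fell at each step in each sow, and sow 2 was below both other sows at all 4 times before parturition.

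At one end of the members were genes whose mean fell little across parturition, and at the other end genes that lost most of their level across it. A flat mean could cover sows that went apart, as in GABRP, which fell in sow 1 and rose in sows 2 and 3. SCGN rose in sow 1 and fell in sows 2 and 3. In 24 genes, among them GABRP, EDNRA, PDLIM1, MAOB and SCGN, the mean at 1 d postpartum was at least 0.8 of that at 2 d prepartum. In 31 genes it was at most 0.5 of it, among them APCDD1L, HEPACAM, C1QL2, SLC6A3, COL9A1, COL2A1, AFF2, MYB, CITED1 and DTX4. The ratio ran from 0.025 in APCDD1L to 0.9996 in GABRP, and the rule required it to be below 1.

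**Figure D4:**
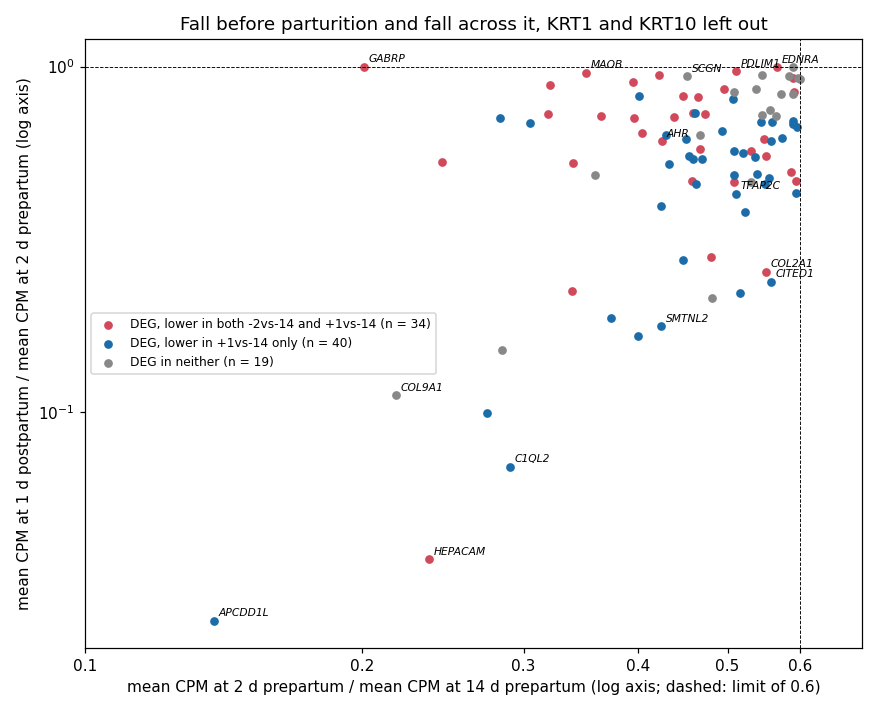
Ratio of means 2 d to 14 d prepartum (horizontal) against ratio of means 1 d postpartum to 2 d prepartum (vertical), both on log axes, for 93 genes coloured by their DEG status, KRT1 and KRT10 being left out. GABRP, EDNRA and MAOB lie at the upper edge, near 1, while APCDD1L, HEPACAM, C1QL2 and COL9A1 lie lowest.

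The rule used means over the sows, so the difference between sows was a measure it did not use. Its limits on level and ratio still set the members apart from all genes tested. The lower quartile of the 14 d mean, for instance, was 8.14 CPM in the members and 4.12 CPM over all genes tested. The part of these limits in the shares given next was not tested. In the edgeR quasi-likelihood test of the sow terms beside time, 22 of the 95 members differed between sows (adjusted p at most 0.05 over all genes), which is 23.2%, against 8.46% of all tested genes. DESeq2 called 43 members, 45.3%, against 13.4% of all genes. At p of 0.05 before adjustment it was 58 members, 61.1%, against 23.5%. Sow 3 was the highest in 13 of the 22, sow 2 in 5 and sow 1 in 4, and the highest sow was the highest at all 5 time points in 13 of them. The estimated difference between the highest and the lowest sow exceeded 1 on the log2 scale in 12.

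COL9A1 differed most clearly between sows (adjusted p = 1.118e-06), with means over the 5 time points of 18.3 CPM in sow 1, 86.2 CPM in sow 2 and 11.97 CPM in sow 3, and sow 2 was the highest at 5 of 5 time points. SCGN (adjusted p = 1.745e-04) had means of 42.1, 137 and 88.9 CPM in sows 1, 2 and 3, and MDK (adjusted p = 0.020) 145, 251 and 142 CPM. Sow 2 was thus the highest for COL9A1, SCGN, MDK, DTX4 and DAPK1. APCDD1L went the other way (adjusted p = 0.0016), with 13.7, 6.27 and 24.8 CPM, sow 2 being the lowest at 4 of 5 time points. MAPRE2, a protein of microtubule ends, was highest in sow 1 at all 5 time points, 19.8 CPM against 11.3 and 8.93 CPM (adjusted p = 6.475e-04). HHLA2, a ligand of T cells, was lowest in sow 1 at all 5, 1.07 CPM against 3.43 and 5.47 CPM (adjusted p = 0.0023).

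**Figure D5:**
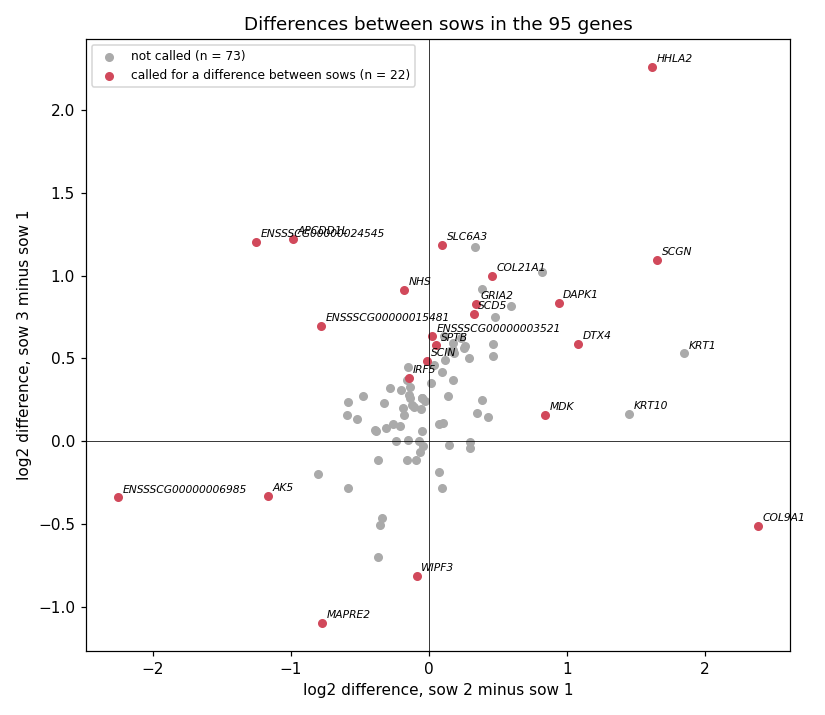
Fitted log2 differences of sow 2 minus sow 1 (horizontal) and sow 3 minus sow 1 (vertical) for the 95 genes, with the 22 called for a difference between sows in red. COL9A1, SCGN and HHLA2 lie far to the right or top, and MAPRE2 and ENSSSCG00000006985 at the bottom and left.

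A difference between sows in the slope of the decline was called in 0 members, against 0% of all tested genes, by the same edgeR test with a separate slope with day for each sow. At p of 0.05 before adjustment it was 8 members, 8.42%, against 7.64%, and no other tool was run for it. The paths within single sows are a description, since the rule used the same levels. At each step in each of the 3 sows 10 members fell (0.185% of all genes did), and these were COL9A1, COL11A1, APCDD1L, EFNB3, CRABP2, HS6ST2, PDLIM1 and 3 unnamed genes. Another 41 fell at each step in 2 sows, 34 in 1 and 10 in none. From 14 to 2 d prepartum 93 members were lower in all 3 sows, KRT1 and KRT10 being the exceptions, and 46 had a ratio of 0.6 or less in each sow. The median ratio of 2 d to 14 d was 0.468 in sow 1, 0.405 in sow 2 and 0.562 in sow 3.

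Membership depended on single libraries as well. When each library was left out in turn and the rule applied to the rest, 13 members were kept all 15 times, 18 were lost once and 64 more than once, and between 70 and 94 of the 95 were kept each time. The 13 were CNN3, COL2A1, RAB3B, CRABP2, HEPACAM, ANXA9, WIPF3, B4GALT6, AXIN2 and 4 unnamed genes. At the limits of the rule, the members nearest to the ratio of 0.6 were 2 unnamed genes at 0.597 and 0.5997, and just outside it were CTNNB1, the beta-catenin of Wnt signalling, at 0.602 with 1493 CPM at 14 d, and NR2F2 at 0.604. Just below the level of 5 CPM stood TFAP2B, at 4.61 CPM, and PIWIL4, at 4.52 CPM.

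Members were 0.704% of all tested genes. Of 43 tested genes of the cell cycle and DNA replication, a list that did not include the member WEE1, 0 were members. In the prepartum comparison 0 of them were downregulated by edgeR or limma-voom, 1 by DESeq2 and 1 at p of 0.05 before adjustment, while edgeR called 35 in the postpartum one. The lists of adipocytes, endothelium, leukocytes, skeletal muscle, myoepithelium, ribosomal proteins and ribosome biogenesis, of 6 to 40 tested genes each, held 0 members. Among 20 luminal genes, TFAP2C and ANXA9 were members, and in the prepartum comparison edgeR called 1 gene lower, KRT18, DESeq2 4 and limma-voom 3, with 5 lower and 2 higher at p of 0.05 before adjustment.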

How the data were processed

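Per the labels and the file headers, the authors trimmed single reads with Trimmomatic, aligned them with STAR 2.5.1b to the pig genome Sscrofa10.2 and deposited 1 table per library of the raw count of reads on the exons of each Ensembl gene, made by featureCounts (Subread 1.5.0) with strand and without normalization. The Methods name a RefSeq annotation, the headers that of Ensembl, and positions given here are those of the tables.

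Genes with at least 1 CPM in at least 3 of 15 libraries were kept, 13503 of 25322, and scaled by TMM, which takes out part of the dilution by abundant milk transcripts. Counts were fitted in R 4.3.3 with edgeR 4.0.16 (glmQLFit and glmQLFTest), all libraries in 1 model with time as factor. The sow entered a second fit. Alternatives used DESeq2 1.42.0 and limma 3.58.1, other scalings and filters, the sow as a block, the RIN as covariate, counts thinned to 10782343 (seed 20), and each library left out in turn. Scripts were tested on simulated counts. Differences in log2 CPM from the time point means correlated between libraries of a sow. Over all tested genes the mean r was 0.396 over 30 pairs of libraries, the lowest 0.103. Over the members it was 0.27, the lowest -0.4. Between sows the mean r was -0.198 over all tested genes. Differences from a time point mean cancel out over the sows, so this value follows from that within sows. In fits with time alone, p measures the spread between the 3 sows within time points. These fits take the 15 libraries as independent, although each sow gave several. With the sow as a block, and in the tests of sow terms and slopes, p measures the spread left within sows. Intervals cover counting error only.

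Symbols came from the study's gene list for 18 members and from a table of Ensembl IDs for 58, and 19 had none. A symbol shared by several IDs named none, and 73 IDs with 2 different names were left out of list counts. Members and gene lists were chosen with earlier results of these data known, and the role groups and the epidermal markers after names and values had been seen. Named in full were the members on a list and then, up to 30, those with the highest mean at 14 d. Values of 1 member are not reported here singly. Promoter and protein sequences were not used here.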

Additional observations from a re-analysis of the deposited data

How the results depend on the processing

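The rule chose 95 genes, and between 77 and 122 when a library was left out. It chose 683 with total counts in place of TMM, 51 with a ratio limit of 0.5, 188 with 0.7 and 60 with a level limit of 10 CPM, and within 1.5 times of 95 under the other settings. Against 34 members called in -2vs-14, DESeq2 called 72, limma-voom with the sow as random effect 74, the sow block 83, total counts 75, the RIN covariate 0, and the fit without libraries 4, 10 and 25, added after seeing the data, 1. Leaving out 1 library gave between 6 (library 4 or 31) and 66 (library 37). In -6vs-14, against 0, DESeq2 called 4, the sow block 4 and limma-voom with random sow 2, and leaving out 1 library gave between 0 and 1. In +1vs-14 the RIN covariate called 9 against 74, and all other settings stayed within 1.5 times. Differences between sows were called in 43 members by DESeq2 against 22, and 20 members fell at each step in each sow with total counts against 10. The sow block moved no other of these counts over the 95 by more than 1.5 times. Total counts moved the median of all genes to -0.42 prepartum (-2vs-14) and -0.64 postpartum (+1vs-14), and the split of calls from 121 lower and 264 higher to 1268 and 160 in the former, and from 1404 and 1799 to 5161 and 532 in the latter. Among 30 named genes, SCGN reversed with the RIN covariate, to 0.2196 and 0.2374 in the same order, and KRT10 in -2vs-14 when a library was left out. The KRT10 value was -4.665 with all libraries and ran from -5.291 to 0.5268 when each was left out in turn. The cause was not tested. No paired analysis by label was possible because the labels share no replicate numbers between time points.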
